A study of Mus musculus with 2 samples.

Results

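A set of 43 mouse genes that mark cortical projection neurons was followed through total RNA sequencing of the left cerebral cortex. The genes were taken by name, and each was found once among 55536 annotated genes, of which 22015 are nuclear protein-coding. They were sorted by their known laminar expression into 7 pan-excitatory factors, 8 genes of layer 2/3, 3 of layer 4, 7 of layer 5, 7 of layer 6, 2 of the subplate and 9 that mark cells in several layers. The tissue came from female mice of strain B6CASTF1/J, a first-generation cross of the C57BL/6 and CAST strains, aged 25 days, with no treatment named in the labels. There were 2 libraries, replicates 1 and 2, each from 300 ng of total RNA with synthetic ERCC spike-in RNAs. The labels give the tissues different animal numbers but the same donor identifier, so if both came from 1 animal the spread between them covers preparation only. As both libraries belong to 1 group there is no contrast of conditions, and an exact two-sided sign-flip test over 2 animals cannot give a p below 0.5.

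Projection neurons are the glutamatergic neurons of the cortex that send axons out of their local circuit. Upper-layer cells connect mainly to other cortical areas, layer 4 receives thalamic input, layer 5 holds the cells that project to brainstem and spinal cord, and layer 6 holds cells that project to the thalamus. Transcription factors such as Fezf2, Bcl11b, Tbr1 and Cux2 set or maintain these identities during development, and many stay expressed after the axons have reached their targets.

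Levels are given in TPM, the abundance of a transcript scaled to the library, which corrects for transcript length and so allows genes to be compared. Differences between the animals are given in CPM, the expected counts of a gene scaled to the library total over all annotated genes, which does not correct for length. The libraries held 31301126 expected counts (replicate 1) and 27182336 (replicate 2). The label of cortex was met by Slc17a7, the vesicular glutamate transporter of cortical excitatory neurons, at 595.6 TPM in replicate 1 and 639.2 TPM in replicate 2. A list of 18 projection neuron genes outside the set, Slc17a7 among them, was detected in full at 1 TPM or more in each library. By the same rule 58.7% of nuclear protein-coding genes were detected. Striatal projection neuron genes were present too, 11 of 11, and summed to 588 TPM in replicate 1 and 401 TPM in replicate 2, and the 8 myelin genes of oligodendrocytes summed to 1508 and 2375 TPM. In bulk tissue, fewer cells of a type and less RNA per cell cannot be told apart, which holds for every level below.

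Of the 43 genes, 42 were detected, at 1 TPM or more in each library. By the same rule 58.7% of nuclear protein-coding genes and 27.5% of all annotated genes were detected. The median gene of the set stood at 16.3 TPM, against 16.0 TPM for the 12933 detected protein-coding genes, so the set as a whole sat at the middle of the detected genes. Within it the mean level ran from 1.21 TPM for Osr1 to 133.9 TPM for Lmo4. In the order of mean TPM, 31 of the 42 neighbouring pairs overlapped over the libraries, so most adjacent positions are not separated. The clear breaks came after Lmo4, Calb1, Sulf2, Rprm, Crym, Parm1, Tshz2, Deptor, Rspo1, Nxph4 and Osr1.

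**Figure D1:**
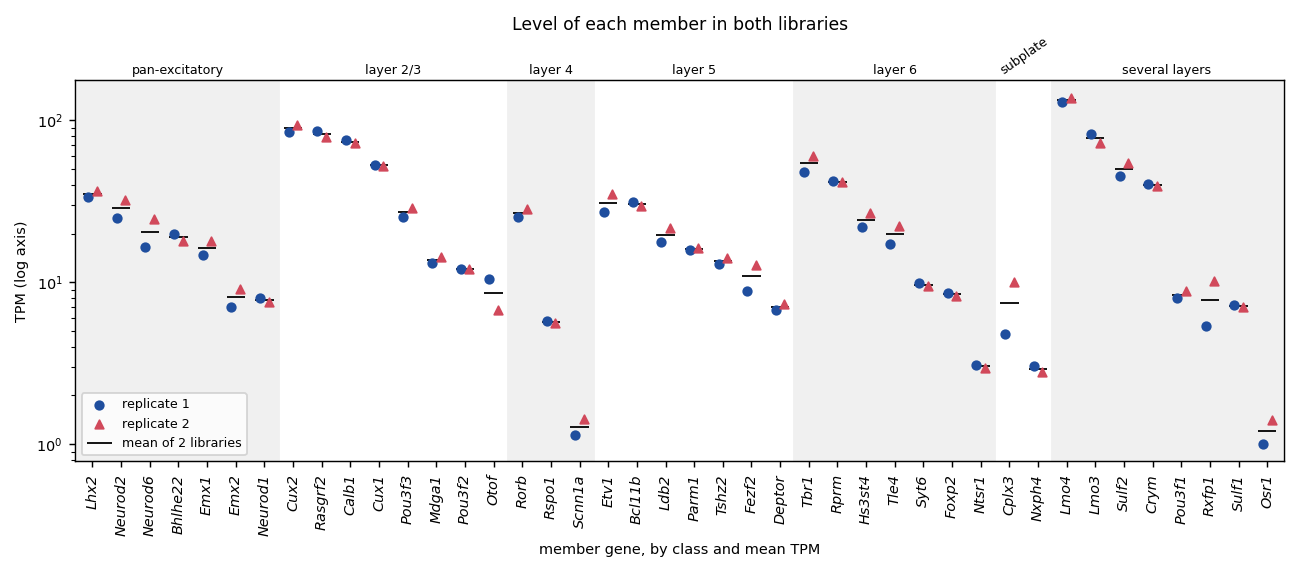
TPM (log axis) of the 42 detected genes in replicate 1 (blue circles) and replicate 2 (red triangles), with the mean as a bar, grouped by class. Levels within most classes spread widely, and the libraries lie farthest apart for Rxfp1, Cplx3, Otof and Neurod6.

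The 7 genes placed as pan-excitatory factors, a class for factors not tied to a layer, had a median of 16.4 TPM in replicate 1 and 18.0 TPM in replicate 2. Lhx2, a LIM homeodomain factor of the cortical field, was the highest of them at 33.4 TPM in replicate 1 and 36.4 TPM in replicate 2. Emx1, a homeodomain factor of the dorsal telencephalon, had 14.7 TPM in replicate 1 and 18.0 TPM in replicate 2. Its relative Emx2 had 7.04 TPM in replicate 1 and 9.11 TPM in replicate 2, so Emx1 exceeded Emx2 by 2.09-fold and 1.97-fold. Bhlhe22, a basic helix-loop-helix factor of projection neurons, had 19.98 TPM in replicate 1 and 17.9 TPM in replicate 2.

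The 3 Neurod genes encode basic helix-loop-helix factors that drive and maintain neuronal differentiation, and they ranked Neurod2, Neurod6, Neurod1 in both libraries. Neurod2 had 25.0 TPM in replicate 1 and 32.1 TPM in replicate 2. Neurod6 had 16.4 TPM in replicate 1 and 24.7 TPM in replicate 2. Neurod1 had 7.96 TPM in replicate 1 and 7.59 TPM in replicate 2. The level of Neurod2 was 3.14-fold that of Neurod1 in replicate 1 and 4.23-fold in replicate 2, and 1.52-fold and 1.30-fold that of Neurod6. Both Neurod2 and Neurod6 were lower in replicate 1, while Neurod1 was not.

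Layer 2/3 genes had the highest class median, 39.1 TPM in replicate 1 and 40.6 TPM in replicate 2. The class median was placed at the 76.3 percentile of detected protein-coding genes. With 8 genes it is the midpoint of a wide gap, and no gene of the class stood at it. Above the gap was Cux1, and below it Pou3f3, at 25.1 TPM in replicate 1 and 28.9 TPM in replicate 2. Cux2, a cut-like homeodomain factor of upper layers (chr5:121856366-122050102), had 85.3 TPM in replicate 1 and 94.25 TPM in replicate 2. Its paralog Cux1 had 53.0 TPM in replicate 1 and 52.4 TPM in replicate 2. Cux2 thus exceeded Cux1 by 1.61-fold and 1.80-fold per length, but by only 1.05-fold and 1.08-fold in CPM. With protein-coding transcripts only, the TPM excess was 1.14-fold and 1.31-fold. In the authors' FASTQ-based TPM, made directly from the reads, it was 1.18-fold and 1.34-fold. Rasgrf2, a guanine nucleotide exchange factor for Ras, had 85.5 TPM in replicate 1 and 78.95 TPM in replicate 2. Calb1, the calcium buffer calbindin, had 75.9 TPM in replicate 1 and 72.1 TPM in replicate 2, and is also made by interneurons. The first 3 of these by mean TPM (Cux2, Rasgrf2, Calb1) filled ranks 2, 3 and 5 of the whole set.

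The remaining layer 2/3 genes were lower. Pou3f3 and Pou3f2 (Brn1 and Brn2), POU-domain factors of upper-layer neurons, had 25.1 and 12.1 TPM in replicate 1 and 28.9 and 12.1 TPM in replicate 2. Pou3f3 exceeded Pou3f2 by 2.07-fold in replicate 1 and 2.38-fold in replicate 2, and exceeded Pou3f1, another paralog, placed with the several-layer genes, by 3.15-fold and 3.29-fold. Mdga1, a cell adhesion protein of the synaptic cleft, had 13.2 TPM in replicate 1 and 14.3 TPM in replicate 2. Otof, which encodes the calcium sensor otoferlin, was the lowest, with 10.45 TPM in replicate 1 and 6.71 TPM in replicate 2.

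Layer 4 was unequal. Rorb, an orphan nuclear receptor of layer 4 cells (chr19:18930605-19111196), had 25.3 TPM in replicate 1 and 28.4 TPM in replicate 2. Rspo1, a secreted enhancer of Wnt signalling, had 5.76 TPM in replicate 1 and 5.57 TPM in replicate 2. Scnn1a, a subunit of the epithelial sodium channel used as a layer 4 marker, had 1.14 TPM in replicate 1 and 1.42 TPM in replicate 2. The median of 5.67 ± 0.13 TPM (SD, n = 2) is therefore the level of Rspo1 and says little of Rorb.

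Layer 5 genes had a median of 15.9 TPM in replicate 1 and 16.3 TPM in replicate 2. Etv1, an ETS factor, had 27.1 TPM in replicate 1 and 34.9 TPM in replicate 2. Bcl11b (Ctip2), a zinc-finger factor of subcerebral projection neurons that is also strongly expressed in striatal neurons, had 31.2 TPM in replicate 1 and 29.4 TPM in replicate 2. Fezf2, the factor that specifies those subcerebral neurons, had 8.89 TPM in replicate 1 and 12.9 TPM in replicate 2. Bcl11b was 3.51-fold above Fezf2 in replicate 1 and 2.29-fold in replicate 2, so the size of the gap differed between the libraries. Ldb2, Parm1, Tshz2 and Deptor lay between 6.73 and 17.6 TPM in replicate 1 and between 7.31 and 21.7 TPM in replicate 2. Ldb2 is a LIM-domain-binding cofactor, Tshz2 a zinc-finger factor and Deptor an inhibitor of mTOR.

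Layer 6 genes had a median of 17.3 TPM in replicate 1 and 22.4 TPM in replicate 2. Tbr1, the T-box factor required for layer 6 identity, led with 48.2 TPM in replicate 1 and 60.4 TPM in replicate 2, and was 5.42-fold and 4.70-fold above Fezf2. Rprm, a p53-induced cell cycle gene used as a layer 6 marker, had 42.4 TPM in replicate 1 and 41.3 TPM in replicate 2. Hs3st4, a heparan sulfate sulfotransferase, had 21.8 TPM in replicate 1 and 26.9 TPM in replicate 2. Tle4, a Groucho-family corepressor, had 17.3 TPM in replicate 1 and 22.4 TPM in replicate 2. Tbr1, Tle4 and Hs3st4 were all lower in replicate 1, and Rprm was not.

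Syt6, a synaptotagmin of corticothalamic cells, had 9.85 TPM in replicate 1 and 9.46 TPM in replicate 2. Foxp2, a forkhead factor of layer 6 that striatal neurons also express, had 8.62 TPM in replicate 1 and 8.20 TPM in replicate 2. Ntsr1, the neurotensin receptor that defines a corticothalamic line, had 3.08 TPM in replicate 1 and 2.97 TPM in replicate 2. Ntsr1 was the lowest of the 7 layer 6 genes in both libraries, and Tbr1 and Rprm stood clear of the other layer 6 genes in both.

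The subplate is the deepest thin band of cortical neurons, and its 2 genes were low. Cplx3, a complexin that regulates vesicle release (chr9:57599992-57606281), had 4.80 TPM in replicate 1 and 10.01 TPM in replicate 2. Nxph4, a secreted ligand of neurexins, had 3.02 TPM in replicate 1 and 2.80 TPM in replicate 2. Only Cplx3 of the pair was apart between the libraries.

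Genes that mark cells in several layers spanned the whole range. Lmo4, a LIM-only transcriptional cofactor (chr3:144188530-144205220), was the highest of all 43 in both libraries, at 129.9 TPM in replicate 1 and 137.9 TPM in replicate 2. Its relative Lmo3 had 82.8 TPM in replicate 1 and 72.4 TPM in replicate 2. Sulf2, an extracellular sulfatase of heparan sulfate, had 45.2 TPM in replicate 1 and 54.5 TPM in replicate 2, and exceeded its paralog Sulf1 by 6.25-fold and 7.73-fold. Crym, a thyroid hormone-binding protein, had 40.55 TPM in replicate 1 and 39.5 TPM in replicate 2. Rxfp1, the relaxin receptor (chr3:79641611-79737880), had 5.33 TPM in replicate 1 and 10.2 TPM in replicate 2. Pou3f1 and Sulf1 lay between 7.06 and 8.78 TPM.

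Osr1 and Themis were at the lower end. Osr1, a zinc-finger factor, had 1.00 TPM in replicate 1 and 1.41 TPM in replicate 2, from 40 and 47 counts. Themis, a T-cell development gene used as a marker of some deep-layer neurons, had 0 counts in replicate 1 and 2 in replicate 2. A count of 0 in replicate 1 allows up to 3 counts, 0.0962 CPM, counting error only. The FASTQ-based quantification, which the authors made directly from the reads, listed Themis at 1.45 TPM in replicate 1 and 2.00 TPM in replicate 2, with 97.1% and 96.6% of that in 1 transcript of the nonsense-mediated decay class, Themis-206. Themis was therefore not detected in the alignment-based table and its level depends on the quantification.

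Class medians were compared on the log2(TPM + 1) scale, which understates differences between low genes. Layer 2/3 exceeded layer 5 by 1.16 in replicate 1 and 1.21 in replicate 2 (1.18 ± 0.04, SD, n = 2), and exceeded layer 6 by 1.04 and 0.77 (0.91 ± 0.19). Layer 5 minus layer 6 was -0.12 in replicate 1 and -0.43 in replicate 2, and pan-excitatory factors minus all 27 layer genes was 0.05 and 0.13. The first 2 differences kept their sign under every alternative run, though no layer 2/3 gene was moved to another class. The classes hold different genes, which were chosen with earlier results of these data known. The differences therefore describe the listed genes and not the layers. The layer 2/3 median lies in the gap between Cux1 and Pou3f3, so it depends on which genes were listed. By mean TPM, Pou3f3, Mdga1, Pou3f2 and Otof of layer 2/3 lay within the range of the layer 5 genes. Cux2, Rasgrf2, Calb1 and Cux1 lay above that range. Each SD is over 2 libraries of the same genes and does not cover the choice of genes. Layer 5 minus layer 6 turned positive, to 0.04 in CPM, to 1.16 with core markers only and to 0.20 with Tbr1 placed among the pan-excitatory factors. Core markers left out Tbr1, Rprm and Hs3st4, the highest genes of layer 6, and Pou3f3, Mdga1 and Pou3f2 of layer 2/3. They also left out Ldb2, Tshz2 and Deptor of layer 5, so values with core markers depend on which genes were dropped. The pan-excitatory difference turned negative, to -0.68 in CPM and to -0.05 in FASTQ-based TPM. With these members, layers 5 and 6 are not ordered by the data.

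Choosing TPM or CPM moved single genes as well, because their effective lengths ran from 1244 to 8367 nucleotides with a median of 3368. Rorb, the longest, stood at rank 16 by TPM and rank 4 by CPM. Rprm stood at rank 9 by TPM and 23 by CPM, with an effective length of 1361 nucleotides. Crym moved from rank 10 to 24, Emx1 from 22 to 34, Mdga1 from 24 to 14 and Deptor from 37 to 25 between TPM and CPM, and these 6 were the genes that shifted by 10 ranks or more. The whole set had a median percentile of 50.6 among detected protein-coding genes by TPM and 62.8 by CPM. Layer 2/3 genes had the longest transcripts of the larger classes, with a median effective length of 5386 nucleotides, against 2245 for the pan-excitatory factors.

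**Figure D2:**
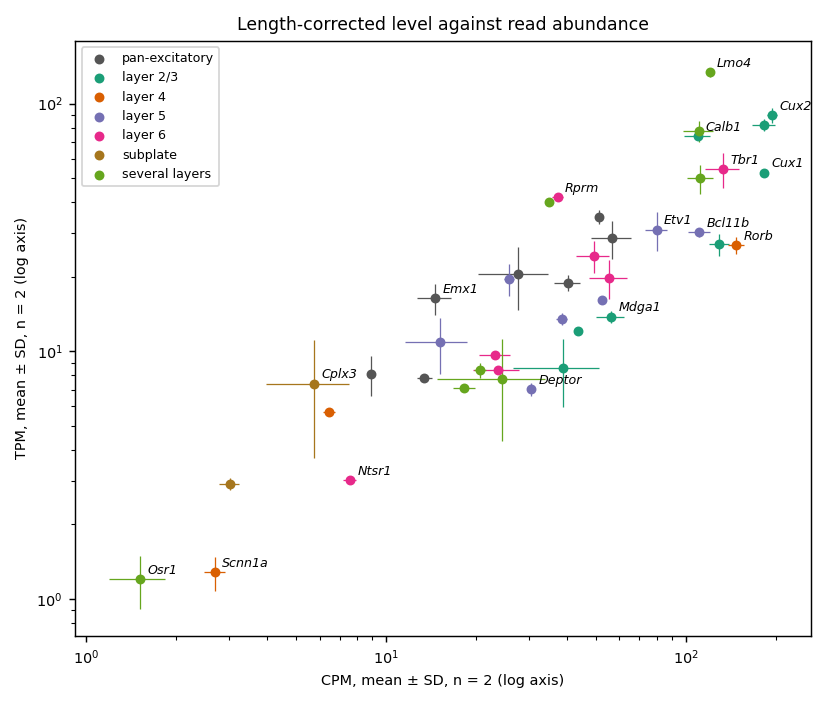
Mean TPM against mean CPM (both log axes, bars are SD over n = 2 libraries) for the 42 detected genes, coloured by class. Rorb, Mdga1 and Deptor, which have long transcripts, lie low for their CPM, and Rprm, Lmo4 and Emx1, which have short ones, lie high.

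Between the animals, most of the genes were close. Taken on the log2(CPM + 1) scale, replicate 1 minus replicate 2 had a median of -0.04 over the 43 genes, of -0.01 over 13375 protein-coding genes with a mean CPM of at least 1, and of -0.02 over all 15682 such genes. The SD of these differences was 0.26 over the set and 0.21 over protein-coding genes. By class, 5 of 8 layer 2/3 genes and 4 of 7 layer 6 genes were higher in replicate 1, against 3 of 7 pan-excitatory factors, 2 of 7 layer 5 genes and 3 of 9 several-layer genes. Layer 4 had 1 of 3 and the subplate 1 of 2 higher in replicate 1, so every class held genes of both signs. The direction of Lhx2 and Lmo4 turned under TMM scaling, that of those 2 and Cux1 under DESeq2 size factors, that of Lmo4 and Crym in FASTQ-based counts, and that of Emx2, Cux1, Mdga1, Pou3f2 and Parm1 in TPM. Mdga1 had a CPM ratio of 1.16 (exact 95% counting interval 1.09 to 1.25) but a TPM ratio of 0.923.

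A ratio of 1.5 or more in CPM was reached by 3 of the 42 genes with a mean CPM of at least 1, which is 7.14%, against 3.2% of protein-coding genes and 5.6% of all annotated genes (1.52% higher in replicate 1 and 4.08% higher in replicate 2). In 1 of the 3 the level was higher in replicate 1, where the background is 1.44% of protein-coding genes, and in 2 it was higher in replicate 2, where it is 1.76%. Otof had 1491 counts (47.8 CPM) in replicate 1 and 817 counts (30.2 CPM) in replicate 2, a 1.58-fold ratio with an exact 95% interval of 1.45 to 1.73. Without molecular identifiers in the reads, this interval and the others here cover counting error only. Rxfp1 had 548 counts (17.6 CPM) in replicate 1 and 843 counts (31.1 CPM) in replicate 2, a ratio of 0.564 (0.506 to 0.629). Cplx3 had 140 counts (4.49 CPM) in replicate 1 and 190 counts (7.02 CPM) in replicate 2, a ratio of 0.640 (0.511 to 0.800).

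At a 2-fold ratio in CPM none of the 42 passed, against 0.703% of protein-coding genes. Cplx3 lay past 2-fold in TPM, at a ratio of 0.480. In TPM the 1.5-fold rule added Neurod6, at a ratio of 0.664, which makes 4 genes, against 5.06% of protein-coding genes. Of the 4, Otof was higher in replicate 1, where the background is 1.58%, and the other 3 in replicate 2, where it is 3.48%. Neurod6 had 700 counts (22.4 CPM) in replicate 1 and 885 counts (32.7 CPM) in replicate 2, a CPM ratio of 0.687 (0.621 to 0.759). Fezf2 had 393 counts (12.6 CPM) in replicate 1 and 477 counts (17.6 CPM) in replicate 2, a ratio of 0.715 (0.624 to 0.819). Both therefore lay just inside the 1.5-fold limit in CPM.

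**Figure D3:**
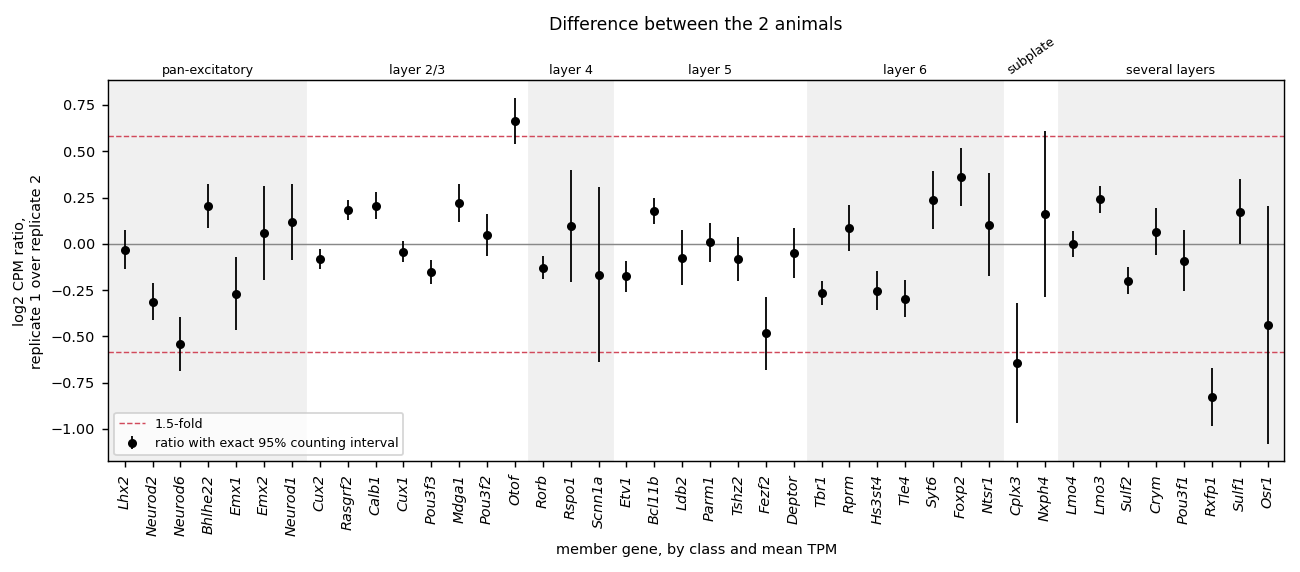
Log2 CPM ratio of replicate 1 over replicate 2 for the 42 detected genes, by class, with exact 95% counting intervals and dashed lines at 1.5-fold. Otof lies above the upper line, Cplx3 and Rxfp1 lie below the lower one, and Neurod6 and Fezf2 come next below.

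Counting error was smaller than the difference for 23 of the 42 genes, whose interval of the ratio did not hold 1, against 30.9% of protein-coding genes. Of these, 9 were higher in replicate 1, against 14.4% of protein-coding genes, and 14 were higher in replicate 2, against 16.6%. All 42 genes had a median of 1140 counts, and the protein-coding genes a median of 646. Among the 23, Tbr1 had a ratio of 0.831 (0.794 to 0.869), Tle4 0.814 (0.759 to 0.873) and Neurod2 0.805 (0.751 to 0.863). On the other side, Foxp2 had 26.6 CPM in replicate 1 and 20.8 CPM in replicate 2, a ratio of 1.28 (1.15 to 1.43). Bcl11b had 117.8 CPM in replicate 1 and 104.25 CPM in replicate 2, a ratio of 1.13 (1.08 to 1.19). With 1 library an animal, these intervals do not hold the spread between animals.

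Other cell types differed between the libraries alongside these genes. All 11 striatal projection neuron genes were higher in replicate 1, and their log2 ratios had a median of 0.59. Of the 11, 7 were higher there by 1.5-fold or more in CPM, against 1.44% of protein-coding genes. Foxp2 and Bcl11b, which striatal neurons also express, were higher in the same library. Their CPM ratios were 1.28 and 1.13, and their TPM ratios 1.05 and 1.06. Both genes were among 19 of the 43 genes that were higher there in CPM. The most abundant of the 11, Ppp1r1b, had 165.8 TPM in replicate 1 and 115.3 TPM in replicate 2. All 8 oligodendrocyte genes were lower in replicate 1, with a median log2 ratio of -0.58. Of the 8, 4 were higher in replicate 2 by 1.5-fold or more in CPM, against 1.76% of protein-coding genes. Interneuron genes summed to 671 TPM in replicate 1 and 612 TPM in replicate 2, with 10 of 12 higher in replicate 1. The part of these cell types in the ratios of the projection neuron genes was not tested.

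The 18 further projection neuron genes, which were not members of the set, split into 3 higher in replicate 1 and 15 higher in replicate 2. Their median ratio was -0.14 on the log2 scale, against -0.01 over protein-coding genes. Cartpt, a neuropeptide precursor, was the 1 of them past 1.5-fold, with 17.9 TPM in replicate 1 and 10.2 TPM in replicate 2. That far in that direction were 1.44% of protein-coding genes. Sox5, a factor of deep-layer neurons, had 25.1 TPM in replicate 1 and 31.7 TPM in replicate 2. Genes of cortical progenitors were near the floor, with Eomes, the T-box factor of intermediate progenitors, at 0.07 TPM in replicate 1 and 0.10 TPM in replicate 2.

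Of the 43 genes, 11 have 1 annotated transcript and 32 have several. Apart from Themis, 31 could be compared, and in 21 the same transcript led in both libraries and both quantifications. By alignment, 29 of them had 1 transcript that led in both libraries, and the leader held at least 50% of the gene's TPM in both for 18. Transcripts annotated as protein-coding held at least 90% in both libraries for 18 genes, and less than 75% in either for 9. Annotated transcripts of the retained intron class keep an intron, and those of the nonsense-mediated decay class carry a premature stop codon.

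Calb1 had the lowest protein-coding share of these 31 genes in the alignment-based quantification. Its protein-coding transcript Calb1-201 held 48.8% in replicate 1 and 45.1% in replicate 2, and the retained-intron transcript Calb1-202 held 47.0% and 51.0%. In the FASTQ-based table Calb1-201 held 84.0% and 72.8%. With protein-coding transcripts alone, Calb1 had 34.8 TPM on average. Retained-intron transcripts of Calb1 together held 51.2% in replicate 1 and 54.9% in replicate 2 by alignment, and 16.0% and 27.2% in the FASTQ-based table. The rank of Calb1 therefore rests in part on such transcripts, and more so in the alignment-based quantification.

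Of the 3 genes past 1.5-fold in CPM between the animals, Otof and Rxfp1 also had large shares of TPM outside protein-coding transcripts. Cplx3 had 100% in protein-coding transcripts in both libraries and both quantifications. Otof-201, protein-coding, held 67.3% in replicate 1 and 58.2% in replicate 2, and retained-intron transcripts of Otof held 37.2% on average. Rxfp1-201 held 62.0% in replicate 1 and 54.9% in replicate 2, and the nonsense-mediated decay transcript Rxfp1-202 held 32.6% and 34.7%. Syt6 had 39.0% in replicate 1 and 32.1% in replicate 2 in nonsense-mediated decay transcripts, of which Syt6-206 held 29.8% and 24.5%. Emx1 had 38.3% in replicate 1 and 29.7% in replicate 2 in the retained-intron transcript Emx1-202.

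Tbr1 also differed between the quantifications in protein-coding share. The alignment-based table gave Tbr1-201 95.8% in replicate 1 and 94.97% in replicate 2, whereas the FASTQ-based table gave it 61.5% and 61.9% and put 37.7% and 37.5% in the processed transcript Tbr1-203. Sulf2 differed between libraries instead, with Sulf2-207 at 24.9% in replicate 1 and 3.89% in replicate 2 by the first table, against 42.7% and 50.2% by the second. Bcl11b was split evenly and stably, with Bcl11b-201 at 55.0% in replicate 1 and 51.7% in replicate 2, and Bcl11b-203 at 44.5% and 48.3%.

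**Figure D4:**
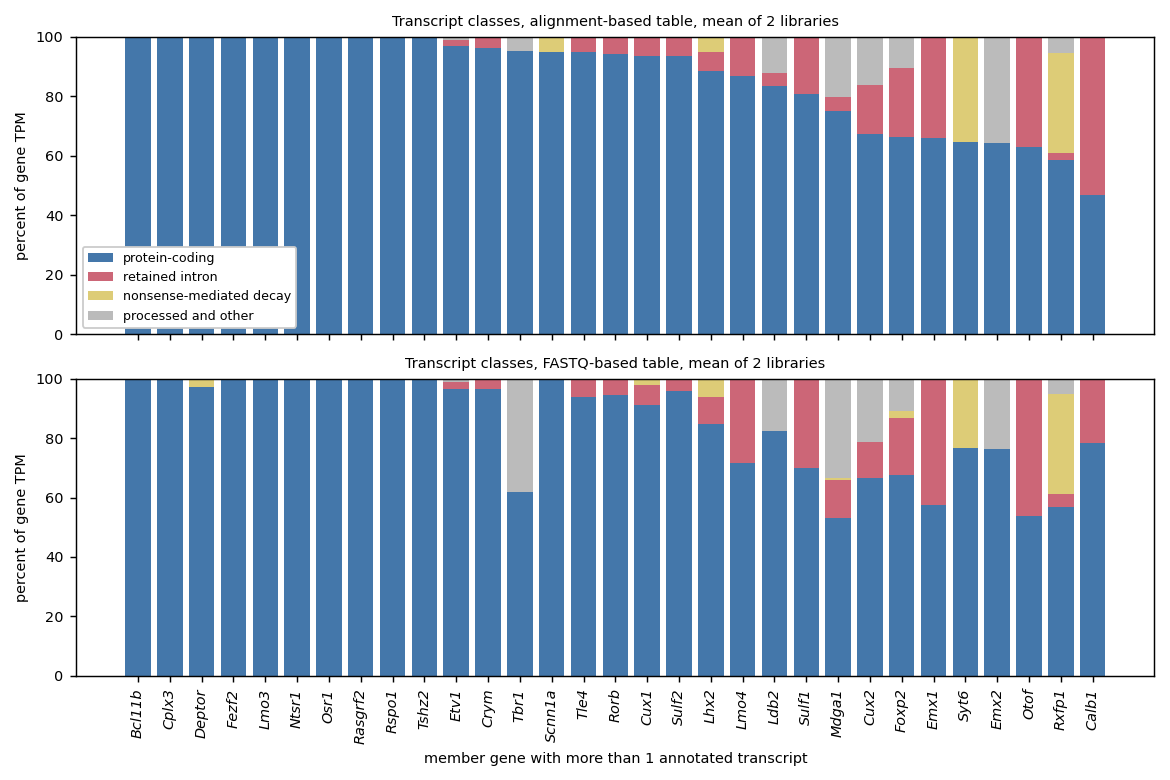
Share of the TPM of each gene (percent) in protein-coding, retained-intron, nonsense-mediated decay and other transcripts, mean of 2 libraries, in the alignment-based table (top) and the FASTQ-based table (bottom), for 31 genes with several transcripts. Calb1 has the lowest coding share in the top panel at 46.9%, and Mdga1 and Otof the lowest in the bottom panel at 53.2% and 53.6%.

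The quantifications also differed in level. The alignment-based TPM was at least 1.5-fold from the FASTQ-based TPM in both libraries for 15 of the 43 genes, against 45.3% of protein-coding genes, and in all 15 the FASTQ-based value was higher, as in 44.9% of protein-coding genes. In replicate 1 alone 29 of the 43 were that far apart, against 61.5% of protein-coding genes, and in replicate 2 alone 17, against 53.2%. Tbr1 had an alignment-based level 0.451 times its FASTQ-based level in replicate 1 and 0.484 times in replicate 2, and Lmo4 0.523 and 0.495 times. A median ratio of 0.652 over protein-coding genes and 0.670 over the set shows that the gap is general. In CPM, where 2.53% of protein-coding genes were that far apart, Themis was the 1 gene of the set that was, with the FASTQ-based value higher, as in 1.33%.

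Neighbouring genes can bear on a few values, since the sources used here do not state whether counting used strand. Exons of 10 of the 43 genes overlap those of a gene on the opposite strand, and in 5 of the 10 an overlapping gene on either strand had at least 10 counts. Sulf2 had 3249 counts in replicate 1 and 3237 in replicate 2, and Ncoa3, opposite it, had 1712 and 1575. Emx2 had 283 counts in replicate 1 and 236 in replicate 2, and its antisense gene Emx2os had 40 and 47. Neurod1 shares exon sequence with Cerkl on its own strand, and its counts of 435.7 in replicate 1 and 348.8 in replicate 2 include divided reads. Without strand, reads in exon sequence shared by such partners could not be told apart. The expected counts of Sulf2, Emx2, Ncoa3 and Emx2os were whole numbers in both libraries. No reads were therefore divided between these pairs, unlike at Neurod1.

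Start sites were examined because a gene with several can use them unequally. RefSeq promoter entries on GRCm38.p6, the same assembly as mm10, were found for 30 of the 43 genes, with 41 start sites in all and more than 1 start in 9 genes. The sequences below are the 250 bases before the start, 5′ to 3′ on the strand of the gene, and are shown for the 3 genes of high CPM whose starts share the transcripts. Capitals mark E-boxes, the motif CANNTG that basic helix-loop-helix factors such as the Neurod proteins can bind. All 6 are on the minus strand, and lie at chr19:19111197-19111446 and chr19:19001118-19001367 for Rorb, chr5:122049852-122050101 and chr5:122047826-122048075 for Cux2, and chr3:144205256-144205505 and chr3:144202397-144202646 for Lmo4.
Rorb outer start: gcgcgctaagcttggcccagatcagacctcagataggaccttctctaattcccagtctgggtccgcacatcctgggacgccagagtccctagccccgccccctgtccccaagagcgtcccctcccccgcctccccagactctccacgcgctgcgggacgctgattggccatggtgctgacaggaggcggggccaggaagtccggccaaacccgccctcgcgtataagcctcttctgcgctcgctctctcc
Rorb inner start: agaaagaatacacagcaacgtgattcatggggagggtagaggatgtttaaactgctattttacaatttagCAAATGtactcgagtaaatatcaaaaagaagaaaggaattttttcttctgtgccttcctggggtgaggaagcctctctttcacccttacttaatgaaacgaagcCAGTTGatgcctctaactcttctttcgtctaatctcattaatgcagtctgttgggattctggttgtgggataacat
Cux2 outer start: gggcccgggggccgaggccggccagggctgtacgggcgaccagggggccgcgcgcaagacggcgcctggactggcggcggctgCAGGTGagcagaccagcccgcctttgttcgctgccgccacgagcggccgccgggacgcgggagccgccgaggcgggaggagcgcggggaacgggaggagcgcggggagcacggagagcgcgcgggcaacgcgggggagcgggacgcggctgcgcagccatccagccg
Cux2 inner start: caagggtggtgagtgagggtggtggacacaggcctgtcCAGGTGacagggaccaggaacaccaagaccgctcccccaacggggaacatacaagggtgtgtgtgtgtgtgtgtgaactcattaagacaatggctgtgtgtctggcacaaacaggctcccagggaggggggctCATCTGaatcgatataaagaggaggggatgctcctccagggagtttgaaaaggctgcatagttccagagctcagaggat
Lmo4 outer start: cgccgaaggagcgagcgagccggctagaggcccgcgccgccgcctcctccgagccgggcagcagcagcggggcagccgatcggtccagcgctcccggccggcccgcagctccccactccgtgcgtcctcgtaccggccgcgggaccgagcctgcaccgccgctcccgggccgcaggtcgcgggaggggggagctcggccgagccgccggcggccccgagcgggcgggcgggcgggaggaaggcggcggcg
Lmo4 inner start: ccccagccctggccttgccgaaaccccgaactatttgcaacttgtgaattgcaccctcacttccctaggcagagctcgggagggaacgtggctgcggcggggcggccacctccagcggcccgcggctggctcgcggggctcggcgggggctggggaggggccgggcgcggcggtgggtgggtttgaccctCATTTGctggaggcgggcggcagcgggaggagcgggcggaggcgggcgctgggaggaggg

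Transcripts that begin within 100 bases of the outer start of Rorb held 87.2% of its TPM in replicate 1 and 88.0% in replicate 2, and those at the inner start held 12.8% and 12.0%. The outer sequence of Rorb holds 18 CpG dinucleotides and 0 E-boxes, and the inner one 4 CpG and 2 E-boxes. The alignment-based table put 19.5% of Cux2 in replicate 1 and 19.2% in replicate 2 at the outer start, and 6.94% and 7.63% at the inner start. The FASTQ-based table gave the inner start of Cux2 41.5% in replicate 1 and 44.4% in replicate 2, and the outer one 25.1% and 24.3%, so the preferred start of Cux2 depends on the quantification. For Lmo4 the outer start, with 44 CpG, held 54.6% in replicate 1 and 51.5% in replicate 2, and the inner one, with 25 CpG and 1 E-box, held 36.1% and 36.3%. In the FASTQ-based table the outer start of Lmo4 held 33.7% in replicate 1 and 32.5% in replicate 2, and the inner one 34.9% and 22.3%. Transcripts that begin at neither start make up the rest of Cux2 and Lmo4.

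Promoters of the set were richer in G and C than promoters at large, with a median of 62.8% against 52.4% over 32851 RefSeq starts, and a median of 15 CpG against 6. An E-box on either strand was in 24 of the 41 (58.5%), against 66.2% of all promoters. The Neurod-type E-box CAGATG was in 4 (9.76%), against 14.4%, and the homeodomain motif TAATTA, searched on both strands, in 2 (4.88%), against 4.84%. The POU octamer ATGCAAAT was in none of the 41, against 1.60% of all promoters, and TATAAA in 3 (7.32%), against 12.4%. CAGATG is 1 form of the E-box and is counted in both. A match describes these letters and not a binding site.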

How the data were processed

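Total RNA was sequenced from 2 libraries of 1 group. Per the description deposited with the files, the authors quantified each library on mm10 with GENCODE M21, once from transcriptome alignments and once directly from the reads. No source used here names the aligner or the quantifiers. Per the file headers, the authors' alignment-based tables give expected counts, TPM, FPKM and, for each transcript, its percent of the TPM of its gene, and the FASTQ-based tables give estimated counts and TPM per transcript, summed per gene here. Entries outside annotated genes, 0.350% (replicate 1) and 0.378% (replicate 2) of expected counts, stayed out of CPM. FPKM was not used further.

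CPM ratios were computed from expected counts, rounded to whole numbers for exact conditional 95% intervals. The ratio calculation was tested on simulated data. edgeR TMM factors (0.987 and 1.01) and DESeq2 size factors (1.06 and 0.947) served as alternative scalings only. No count model was fitted, because there is 1 group. Every gene of the set was described by class, roughly in order of mean TPM with related genes kept together and some given by their range, and other genes were named from marker lists. The members, their layer classes and the lists were chosen with earlier results of these data known. Python 3.11.15, numpy 2.4.6, pandas 2.3.3 and scipy 1.17.1 were used.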

Additional observations from a re-analysis of the deposited data

How the results depend on the processing

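The difference of layer 2/3 minus layer 5 (1.18 on the log2 scale) was 1.60 in CPM, 1.03 in FASTQ-based TPM, 1.22 with a pseudocount of 0.1, 1.75 with core markers only and 0.89 with protein-coding transcripts only, an alternative chosen after seeing the data, and lay between 1.16 and 1.21 with 1 library left out. Layer 2/3 minus layer 6 (0.91) was 1.64 in CPM, 2.91 with core markers, 1.38 with Tbr1 among the pan-excitatory factors and 0.69 with protein-coding transcripts only, and lay between 0.77 and 1.04 with 1 library left out. Layer 5 minus layer 6 (-0.28) turned to 0.041 in CPM, 1.16 with core markers and 0.20 with Tbr1 moved, and lay between -0.43 and -0.12 with 1 library left out. Pan-excitatory minus layer genes (0.09) turned to -0.68 in CPM and -0.047 in FASTQ-based TPM, was 0.31 with core markers and 0.37 with Tbr1 moved, and lay between 0.05 and 0.13 with 1 library left out. The cause was not tested.

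The counts of detected genes (42) and of leading transcripts with at least 50% (18) stayed within 1.5 times of these values under every alternative run. The count past 1.5-fold in CPM between the animals (3) was 0 at a fold of 2 in CPM. The median log2 ratio of the set (-0.04) was -0.0046 under TMM scaling, 0.0047 under DESeq2 size factors and -0.11 in TPM. The count of genes whose quantifications lay 1.5-fold apart (15) was 1 in CPM and 2 after each TPM ratio was divided by its median over protein-coding genes, a step chosen after seeing the data, and was between 17 and 29 with 1 library left out (29 without replicate 2), since 1 library then has to pass instead of both. No paired analysis was possible because there is 1 group.

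Depth limits the low genes: Osr1, Scnn1a and Nxph4 rest on fewer than 100 counts in each library, and the level of Themis rests on 0 and 2 counts. With 2 libraries, the spread between animals is poorly known.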

Other observations

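Genes of regions that border the cortex and of astrocytes were also measured. Hippocampal genes summed to 91.0 TPM in replicate 1 and 88.3 TPM in replicate 2, with 3 of 7 higher in replicate 1 by CPM. Fibcd1, which marks hippocampal pyramidal cells, was the 1 of them past 1.5-fold, with 3.97 TPM in replicate 1 and 8.28 TPM in replicate 2. The most abundant, Ociad2, went the other way, with 55.9 TPM in replicate 1 and 45.7 TPM in replicate 2. Thalamic genes summed to 41.1 TPM in replicate 1 and 31.97 TPM in replicate 2, with 6 of 7 higher in replicate 1. Of the 7, 2 were higher there by 1.5-fold or more in CPM, against 1.44% of protein-coding genes. Astrocyte genes summed to 1664 TPM in replicate 1 and 1746 TPM in replicate 2, with 6 of 9 higher in replicate 1 by CPM. Of 8 cortical progenitor genes, 5 were detected, and the proneural factors Neurog1 and Neurog2 were not, at 0.15 and 0.52 TPM in replicate 1 and 0.14 and 0.62 TPM in replicate 2.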
